A study of Mus musculus with 8 samples.

Results

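The CXC chemokine ligands were followed in RFB cells, a mouse kidney line that the labels call fibroblasts, given TGF-β with or without chaetocin. The genes were Cxcl1, Cxcl2, Cxcl3, Cxcl5, Cxcl9, Cxcl10, Cxcl12, Cxcl14, Cxcl16 and Cxcl17, taken by symbol as 10 of the 22274 genes in the deposited table. RNA sequencing counts came from 4 libraries of cells given TGF-β and chaetocin and 4 libraries of cells given TGF-β alone. TGF-β is a cytokine that drives fibroblasts to make matrix, and it was present in all 8 libraries, so no value describes TGF-β itself. Chaetocin, made by fungi, inhibits SUV39 histone H3 lysine 9 methyltransferases and can also hit thioredoxin-linked redox enzymes. The sources used here give no dose or time. The title of the series names Suv39h1 and CXCL10, so the comparison asks whether Cxcl10 and its relatives differed under the inhibitor. Knockdown of SUV39H1 is mentioned in the series' design text but in no label of these libraries. RFB is 1 line, and the labels do not say whether libraries are separate cultures, so the spread behind each p-value may be technical.

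CXC chemokines are small secreted proteins that guide leukocytes through G protein-coupled receptors. Ligands with a Glu-Leu-Arg motif before the first cysteines, such as Cxcl1, Cxcl2, Cxcl3 and Cxcl5, draw neutrophils through Cxcr2, and they are classic targets of NF-κB. Cxcl9, Cxcl10 and Cxcl11 lack that motif, are induced by interferons and draw activated T cells through Cxcr3. Cxcl12 is a homeostatic ligand of Cxcr4 and Ackr3, Cxcl16 is made as a membrane protein that binds Cxcr6, and Cxcl14 and Cxcl17 are expressed mainly by epithelia. In injured kidney, tubule cells, fibroblasts and macrophages can all produce such ligands.

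The sequence just before the start of several of these genes is given because these ligands are known by their inducers. The first set below, from the RefSeq promoter table (build GRCm38.p6), gives the 250 bases before the start of Cxcl10 and of 3 Glu-Leu-Arg ligands, 5′ to 3′ on the gene's strand, with motif matches in capitals. An interferon-stimulated response element was taken as GAAA, 2 bases of any kind and GAAA, and a κB site as GGGA, 2 bases of any kind, T, 1 base of any kind and CC, both searched on both strands.
Cxcl10: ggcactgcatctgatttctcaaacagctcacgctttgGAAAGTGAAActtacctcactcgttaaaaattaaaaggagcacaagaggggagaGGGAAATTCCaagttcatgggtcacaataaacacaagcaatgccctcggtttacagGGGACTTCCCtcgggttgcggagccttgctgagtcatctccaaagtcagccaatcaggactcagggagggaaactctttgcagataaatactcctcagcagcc
Cxcl1: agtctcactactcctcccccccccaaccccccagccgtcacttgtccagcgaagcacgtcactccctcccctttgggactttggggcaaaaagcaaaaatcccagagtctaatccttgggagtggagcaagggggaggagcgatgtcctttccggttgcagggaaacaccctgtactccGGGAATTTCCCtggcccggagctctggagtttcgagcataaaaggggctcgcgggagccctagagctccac
Cxcl2: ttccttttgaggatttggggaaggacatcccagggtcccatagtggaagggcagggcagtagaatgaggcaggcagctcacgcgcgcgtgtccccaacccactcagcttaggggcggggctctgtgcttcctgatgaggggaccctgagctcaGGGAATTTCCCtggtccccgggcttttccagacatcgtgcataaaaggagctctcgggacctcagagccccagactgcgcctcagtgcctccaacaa
Cxcl3: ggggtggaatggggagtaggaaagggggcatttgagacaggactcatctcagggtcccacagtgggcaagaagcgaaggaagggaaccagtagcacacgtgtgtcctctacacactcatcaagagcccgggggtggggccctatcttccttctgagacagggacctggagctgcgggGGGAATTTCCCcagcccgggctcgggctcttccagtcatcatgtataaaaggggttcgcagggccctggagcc
The Cxcl10 window, at chr5:92348890-92349139 on the minus strand, held GAAAGTGAAA at bases 213 to 204 before the start, with the κB matches GGGAAATTCC at 159 to 150 and GGGACTTCCC at 103 to 94. The windows of Cxcl1 (chr5:90890995-90891244), Cxcl2 (chr5:90903649-90903898) and Cxcl3 (chr5:90785851-90786100), all on the plus strand, each held GGGAATTTCCC, which matches the κB letters on both strands. It began 71, 97 and 73 bases before the RefSeq start of Cxcl1, Cxcl2 and Cxcl3, in that order. The GENCODE starts of Cxcl1 (90891241) and Cxcl2 (90903871) lie inside their windows, so from those starts the distances are shorter, most of all for Cxcl2. Of 32851 windows of the same length in the table, 978 (2.98%) held the interferon-stimulated element, 1094 (3.33%) held the κB letters and 30 (0.0913%) held both. These matches describe the sequence and do not show that a factor was bound.

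Cxcl14 is shown by itself because its transcript went the other way (values below).
Cxcl14: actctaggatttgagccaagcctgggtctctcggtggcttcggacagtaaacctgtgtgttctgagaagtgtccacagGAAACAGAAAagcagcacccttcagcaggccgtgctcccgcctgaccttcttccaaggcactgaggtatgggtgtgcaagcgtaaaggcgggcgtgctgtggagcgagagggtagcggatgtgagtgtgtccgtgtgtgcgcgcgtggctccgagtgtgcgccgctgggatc
This window (chr13:56296552-56296801, minus strand) held the response element letters GAAACAGAAA at bases 172 to 163 and no κB match. No match to either motif was found in the windows of Cxcl9, Cxcl12, Ppbp or Pf4. Of 15 CXC ligand genes looked up, 11 had a window, and Cxcl5, Cxcl16, Cxcl17 and Cxcl11 are named only.

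Libraries held 14421225 to 22591935 counts with chaetocin and 20135312 to 23664084 with TGF-β alone, so that 3 counts equal 0.127 to 0.208 CPM, the unit of read counts scaled to library size. Libraries of a group correlated at 0.993 or more across genes, and libraries of different groups at 0.917 or less. A count was found in 17925 to 18454 genes per library with chaetocin, against 15581 to 15834 with TGF-β alone. More genes were thus detected with chaetocin, and this holds beside every rise of a scarce gene below. The labelled cell type was partly borne out by its markers. Acta2, the smooth muscle actin of myofibroblasts, stood at 1598 ± 86.9 CPM with chaetocin and 1248 ± 16.8 CPM with TGF-β alone (SD, n = 4 each). The fibroblast proteoglycan Dcn had only 160 and 11 counts over the groups with chaetocin and with TGF-β alone, and Lum had 19 and 1. These are the scarce end of the list. Of 12 fibroblast markers, 7 had a mean above 1 FPKM (counts divided by length and depth), as had 10 of 12 tubule epithelium markers. The epithelial keratin Krt8 reached 3615 ± 46.6 CPM with chaetocin and 1582 ± 29.6 CPM with TGF-β alone. The epithelial adhesion gene Epcam stood at 301.6 ± 6.38 and 285.3 ± 7.44 CPM in the same order, so the cells are called RFB cells here.

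The CXC ligand family did not move as one. Of the 10 genes, 6 had enough counts for the test across 14608 genes (edgeR quasi-likelihood, Benjamini-Hochberg adjusted p under 0.05), and 4 did not. Cxcl10, Cxcl1 and Cxcl2 rose with chaetocin, Cxcl14 and, slightly, Cxcl16 fell, and Cxcl12 was not called. The background was broad: 42.0% of all tested genes were called higher, 38.8% lower and 80.7% in either direction, so 5 called of 6 is close to that share. Cxcl10, Cxcl1 and Cxcl2 were each called and at least 2-fold higher, as were 19.7% of tested genes, and 0 of the 6 were at least 2-fold lower, as were 4.88% of tested genes. The median log2 fold change of the 6 tested ligands was 0.69, against 0.02 for all tested genes. Scaling by total counts in place of TMM moved these medians to 0.81 and 0.14, so changes smaller than that shift depend on scaling. The groups did not overlap in 4 of the 6 tested ligands, against 74.7% of all tested genes. In bulk RNA, fewer cells making a transcript and less transcript per cell cannot be told apart.

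**Figure D1:**
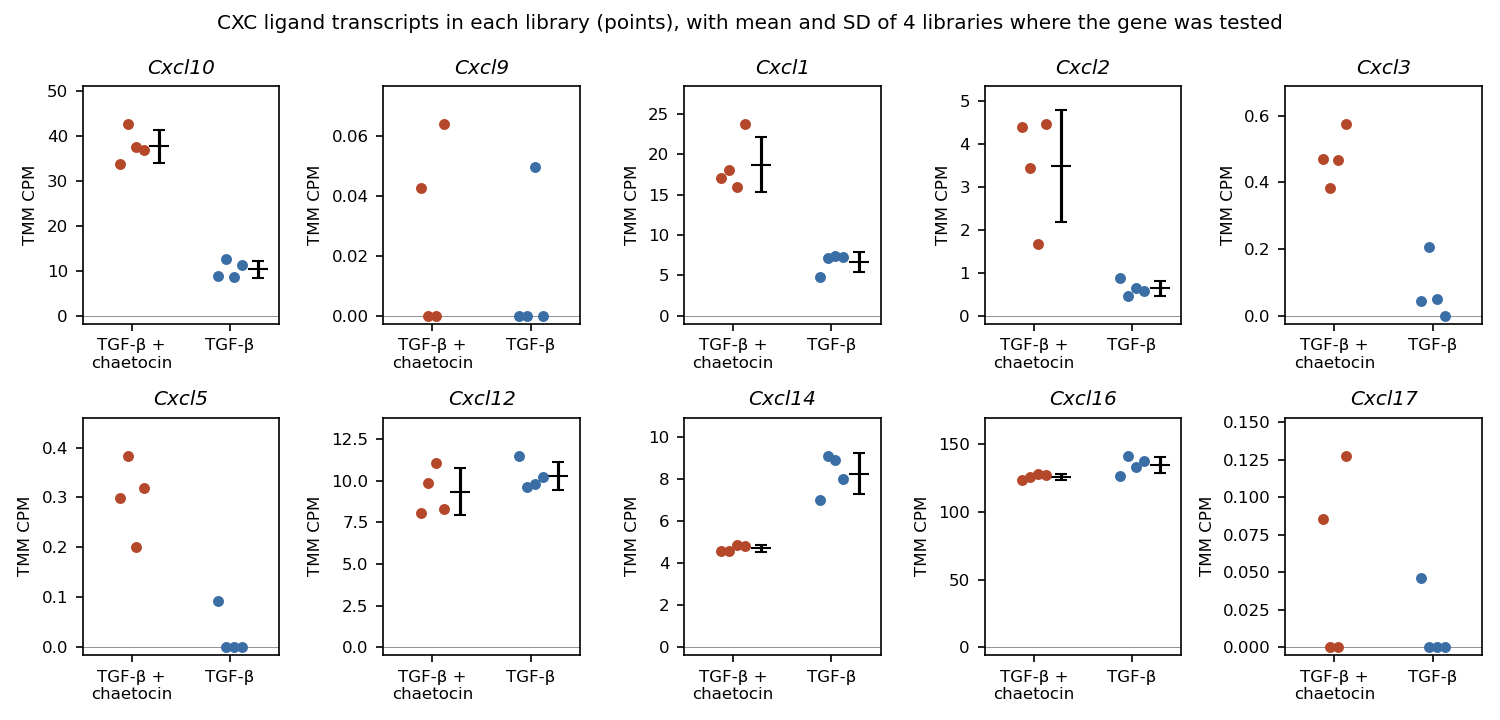
Each panel plots one ligand in TMM-scaled counts (CPM; vertical axis, linear from 0), with 1 point per library, TGF-β + chaetocin left of TGF-β alone, and the mean with SD of 4 libraries where the gene was tested. The groups stand apart for Cxcl10, Cxcl1, Cxcl2, Cxcl3, Cxcl5 and Cxcl14 and overlap for Cxcl9, Cxcl12, Cxcl16 and Cxcl17.

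Cxcl10, the interferon-inducible ligand of Cxcr3 and the gene in the title, had 33.8, 42.6, 37.4 and 36.8 CPM in the 4 libraries with chaetocin, against 8.77, 12.6, 8.59 and 11.3 CPM with TGF-β alone. Every library with chaetocin stood above every library without it. The counts behind these levels were 792, 666, 561 and 577 with chaetocin, against 191, 244, 174 and 257 with TGF-β alone. The means were 37.7 ± 3.63 and 10.3 ± 1.95 CPM (SD, n = 4 each), a log2 fold change of 1.86 ± 0.09 (SE; edgeR adjusted p = 4.8e-17) or 3.64-fold. The exact permutation test (two-sided, on log2 CPM) gave p = 0.0286, its smallest possible value with 4 libraries against 4. That fold was not extreme among genes, as 1813 tested genes (12.4%) had a larger log2 fold change. Over the 19 alternative settings the log2 fold change was 1.78 to 1.98. Cxcl10 (ENSMUSG00000034855) lies at chr5:92346638-92348889 on the minus strand in GRCm38, and 133 of its exon bases overlap Art3 on the other strand.

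Cxcl9 and Cxcl11, the other Cxcr3 ligands, were scarce. Cxcl9, the ligand most dependent on interferon gamma, had 1, 0, 0 and 1 counts with chaetocin and 0, 0, 1 and 0 counts with TGF-β alone. From these 2 and 1 counts the ratio was 2.41 (95% counting interval 0.126 to 142), so no difference was detectable at this depth. Cxcl11 is listed by GENCODE as a polymorphic pseudogene in the mouse reference strain. Of its 3794 exon bases, 1582 overlap Gm2673 on the other strand. Strand is not known here, so reads of those bases cannot be assigned to 1 of the genes. Cxcl11 stood at 0.726, 1.47, 1.13 and 1.08 CPM with chaetocin, against 0.459, 0.928, 0.346 and 1.06 CPM with TGF-β alone, with overlapping groups. Its log2 fold change of 0.61 ± 0.32 (SE; edgeR adjusted p = 0.0849) was not called. It was called under total-count scaling (adjusted p = 0.0438), without chaetocin replicate 1 (adjusted p = 0.0351) and without TGF-β replicate 4 (adjusted p = 0.0262). Whether the 3 Cxcr3 ligands differ in their response was not tested.

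Cxcl1, a neutrophil attractant, had 17.1, 18.1, 16.0 and 23.7 CPM with chaetocin, against 4.87, 7.11, 7.36 and 7.35 CPM with TGF-β alone. The groups were well apart, and TGF-β replicate 1 was the lowest library. Means were 18.7 ± 3.44 CPM with chaetocin and 6.67 ± 1.21 CPM with TGF-β alone (SD, n = 4 each), from 240 to 400 and 106 to 167 counts. The log2 fold change was 1.49 ± 0.12 (SE; edgeR adjusted p = 5.05e-12), or 2.80-fold, and the exact two-sided permutation p was 0.0286. A larger log2 fold change was found in 14.8% of tested genes. Cxcl1 (ENSMUSG00000029380) lies at chr5:90891241-90893115, plus strand.

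Cxcl2, its near neighbour and also a neutrophil attractant, was lower in level and more variable. It had 4.40, 3.45, 1.67 and 4.46 CPM with chaetocin, against 0.873, 0.464, 0.642 and 0.572 CPM with TGF-β alone. Chaetocin replicate 3 was the lowest of its group and still stood above all TGF-β libraries. The counts were 103, 54, 25 and 70 with chaetocin and 19, 9, 13 and 13 with TGF-β alone. This gave a log2 fold change of 2.46 ± 0.27 (SE; edgeR adjusted p = 5.2e-09), or 5.50-fold, with an exact two-sided permutation p of 0.0286. On the scale of log2(FPKM + 1), which understates changes of low genes, it was 1.45. Cxcl2 (ENSMUSG00000058427) lies at chr5:90903871-90905938, plus strand.

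Cxcl3 and Cxcl5, further ligands of Cxcr2, had too few counts for the main test. Cxcl3 had 11, 6, 7 and 9 counts with chaetocin, against 1, 4, 1 and 0 counts with TGF-β alone. Cxcl5 had 7, 6, 3 and 5 counts with chaetocin, against 2, 0, 0 and 0 with TGF-β alone. In both genes the libraries with chaetocin had the higher counts and the groups did not overlap. Libraries with chaetocin also held a count in more genes of the whole series, and the share of untested genes without overlap was not counted. Without the filter on low counts both were called higher by edgeR, Cxcl3 with a log2 fold change of 2.58 (adjusted p = 0.00024) and Cxcl5 at an adjusted p of 0.000575. Over all genes that setting called 7932 higher and 6065 lower, against 6129 and 5662 with the filter. Cxcl3 also passed the filter and was called without chaetocin replicate 2 (log2 fold change 2.70) or TGF-β replicate 2 (3.67). It passed through its chaetocin counts, and these settings dropped its lowest chaetocin library or its highest TGF-β library. Those calls are therefore no separate support for a rise. DESeq2 gave adjusted p-values of 0.00197 for Cxcl3 and 0.00596 for Cxcl5. From 21 and 2 counts the ratio of Cxcl5 was 12.7 (95% counting interval 3.10 to 111). Cxcl3 and Cxcl2 share an identical run of 157 bases in their transcripts, while Cxcl1 shares at most 23 bases with either. Reads in that run cannot be assigned to 1 of the pair, so the Cxcl3 counts are uncertain. Cxcl3 lies at chr5:90786103-90789600 and Cxcl5 at chr5:90759360-90761624, both on the plus strand.

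Cxcl14, an epithelial chemokine for monocytes and dendritic cells, fell. It had 4.57, 4.60, 4.87 and 4.85 CPM with chaetocin, against 7.03, 9.12, 8.94 and 8.01 CPM with TGF-β alone. The chaetocin libraries lay within a narrow band below all TGF-β libraries. The means were 4.72 ± 0.158 CPM with chaetocin and 8.27 ± 0.964 CPM with TGF-β alone (SD, n = 4 each), from 72 to 107 and 153 to 182 counts. This is a log2 fold change of -0.81 ± 0.12 (SE; edgeR adjusted p = 4.0e-07), and the exact two-sided permutation p was 0.0286. Of all tested genes, 92.3% had a higher log2 fold change than Cxcl14. It lies at chr13:56288643-56296551, minus strand.

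Cxcl12, the homeostatic ligand that retains leukocytes and progenitors through Cxcr4, was not called. Its levels were 8.07, 9.84, 11.1 and 8.29 CPM with chaetocin, against 11.5, 9.59, 9.78 and 10.2 CPM with TGF-β alone. The groups overlapped, with the highest chaetocin library above 3 of the 4 TGF-β libraries. The log2 fold change was -0.16 ± 0.10 (SE; edgeR adjusted p = 0.158), and the exact two-sided permutation p was 0.257. Without chaetocin replicate 3 it became a call of lower, at -0.25 (edgeR adjusted p = 0.0297). On the FPKM scale, whose length term varied between libraries for this gene, its sign turned to 0.09 without a call. Cxcl12 lies at chr6:117168535-117181367, plus strand, and no other gene of the table lay within 250 kb.

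Cxcl16, a transmembrane chemokine that Adam10 sheds from the cell surface, differed little. It had 123.2, 125.4, 127.9 and 127.3 CPM with chaetocin, against 126.8, 141.4, 133.1 and 137.3 CPM with TGF-β alone. The groups overlapped, since TGF-β replicate 1 lay below 2 of the chaetocin libraries. A log2 fold change of -0.10 ± 0.03 (SE) was called by edgeR at an adjusted p of 0.0069, whereas the exact two-sided permutation test gave p = 0.0857. With total-count scaling it was 0.02 and not called (edgeR adjusted p = 0.643), so the small decrease depends on scaling. Cxcl16 lies at chr11:70453983-70459984, minus strand, and 552 exon bases overlap Zmynd15 on the other strand, which had 791 counts with chaetocin and 341 with TGF-β alone. Cxcl17, a mucosal chemokine, had 4 counts over the chaetocin libraries and 1 over the TGF-β libraries, too few to compare (ratio 4.83, 95% counting interval 0.478 to 238). Its gene lies at chr7:25400053-25412886, minus strand.

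Levels between genes were compared in FPKM, which divides by a gene length that was not fixed across libraries for every gene. From TGF-β alone to chaetocin, the mean log2 ratio of Cxcl10 over Cxcl12 rose by 2.03 in counts but 1.88 in FPKM. A fixed length would give equal rises, as for Cxcl10 over Cxcl14 (2.68 in both). How far the order of Cxcl12 and Cxcl14 depends on this was not tested. With chaetocin the order was Cxcl16 (54.28 to 59.82 FPKM), Cxcl10 (32.03 to 40.47), Cxcl1 (17.46 to 25.88), then Cxcl12 (2.89 to 3.90), Cxcl2 (1.56 to 4.13) and Cxcl14 (2.63 to 2.77). The libraries of Cxcl2 overlapped both of its neighbours in that order. With TGF-β alone the order was Cxcl16 (54.37 to 59.61 FPKM), Cxcl10 (7.57 to 11.08), Cxcl1 (4.89 to 7.44), Cxcl14 (3.68 to 4.81), Cxcl12 (2.80 to 3.39) and Cxcl2 (0.38 to 0.64), with no overlap between neighbours. Cxcl10 was therefore the second of the 10 ligands in both groups, and Cxcl14 lay below Cxcl12 with chaetocin and above it with TGF-β alone. Cxcl3, Cxcl5, Cxcl9 and Cxcl17 stayed below 1 FPKM in every library.

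The most abundant CXC ligand with chaetocin was outside the 10. Ppbp, the platelet basic protein gene and a Glu-Leu-Arg ligand of Cxcr2 beside Cxcl5 on chromosome 5, had 206.3, 205.6, 178.7 and 196.7 CPM with chaetocin, against 41.5, 36.6, 36.5 and 32.9 CPM with TGF-β alone. All chaetocin libraries stood far above the others, with a log2 fold change of 2.42 ± 0.05 (SE; edgeR adjusted p = 2.6e-25). Its adjacent gene Pf4, platelet factor 4, had 0.726, 0.575, 1.13 and 1.66 CPM with chaetocin, against 1.33, 2.01, 2.42 and 1.63 CPM with TGF-β alone. Pf4 was called lower, with a log2 fold change of -0.88 ± 0.28 (SE; edgeR adjusted p = 0.00542), although its groups overlapped. The Pf4 call was lost with limma on log2(FPKM + 1) without a filter (adjusted p = 0.0504) and with glmTreat against a fold of 1.5 (adjusted p = 0.147). Cxcl13, the B cell attractant, had 18 counts over the chaetocin libraries and 1 over the TGF-β libraries (ratio 21.7, 95% counting interval 3.43 to 905), and Cxcl15 had 0 in all 8. Of these 5 other ligands 3 were tested, of which Ppbp rose, Pf4 fell and Cxcl11 was not called.

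Summed over all 15 CXC ligands, the levels came to 294.3 to 328 FPKM with chaetocin and 113.9 to 122.5 FPKM with TGF-β alone. Ppbp held 58.2 to 62.7% of that sum with chaetocin and 25.1 to 32.2% with TGF-β alone. Cxcl16, at nearly the same level in both groups, held 17.3 to 19.7% with chaetocin and 47.7 to 50.5% with TGF-β alone. Cxcl10 held 10.2 to 12.3% of the sum with chaetocin and 6.55 to 9.05% with TGF-β alone. Cxcl14 dropped to 0.802 to 0.941% with chaetocin, against 3.23 to 4.10% with TGF-β alone.

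**Figure D2:**
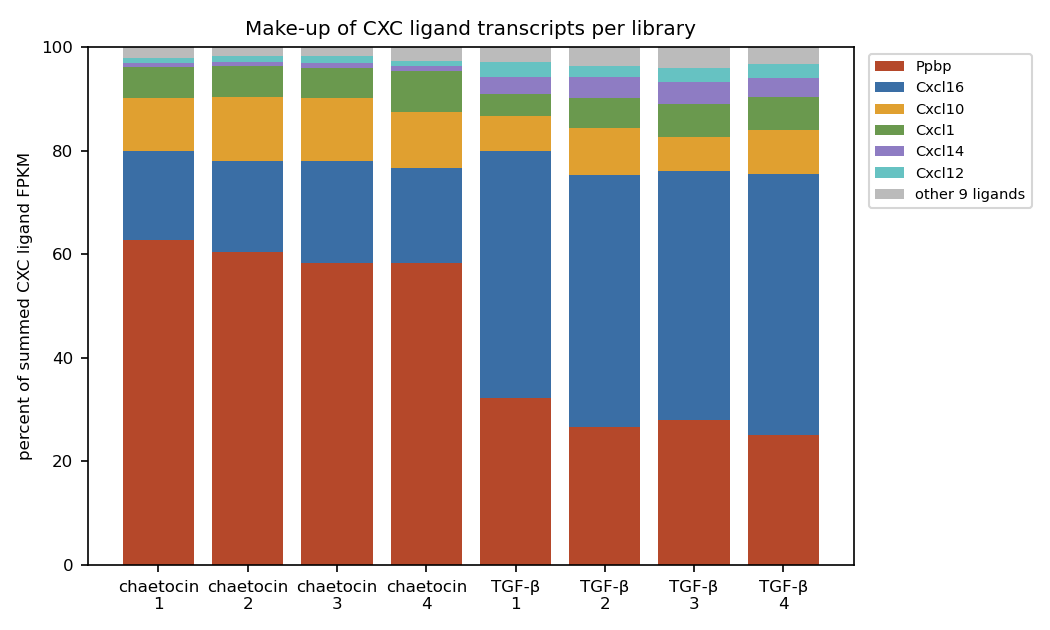
Stacked bars give the percent of the summed FPKM of 15 CXC ligands held by each ligand (vertical axis) in each library, the 4 with TGF-β + chaetocin (marked chaetocin) left of the 4 with TGF-β alone. Ppbp fills 58.2 to 62.7% of the bars with chaetocin, whereas Cxcl16 is the largest part of the bars with TGF-β alone.

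Ratios within a library do not depend on how libraries are scaled. On the log2 scale of counts, Cxcl10 over Cxcl16 was -1.86 to -1.56 with chaetocin and -3.95 to -3.49 with TGF-β alone. Cxcl10 over Cxcl12 was 1.76 to 2.15 with chaetocin and -0.39 to 0.39 with TGF-β alone. Both ratios were higher in every chaetocin library. Cxcl10 over Cxcl1 was 0.63 to 1.23 with chaetocin and 0.22 to 0.85 with TGF-β alone, and over Cxcl2 it was 2.94 to 4.49 and 3.33 to 4.76 in that order, so both ranges overlapped. Against Ppbp the log2 ratio of Cxcl10 was -2.61 to -2.26 with chaetocin and -2.24 to -1.54 with TGF-β alone, ranges that just missed each other with Ppbp gaining more.

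The receptors of these ligands were scarce in RFB cells. Of 9 receptor genes 6 were tested, of which 4 were called higher, 1 lower and 1 not at all, with a median log2 fold change of 0.67. These 5 calls among 6 genes are close to the 80.7% called among all tested genes. Cxcr2, the receptor of Cxcl1, Cxcl2, Cxcl3, Cxcl5 and Ppbp, had 26, 18, 19 and 15 counts with chaetocin, against 2, 4, 3 and 2 counts with TGF-β alone (log2 fold change 3.03 ± 0.38 SE; edgeR adjusted p = 3.6e-08). It rose, but to only 1.12 ± 0.128 CPM (SD, n = 4). Cxcr3, the receptor of Cxcl10, had 5 counts over the chaetocin libraries and 4 over the TGF-β libraries, and was not tested. Cxcr5, the receptor of Cxcl13, rose to 135 counts over the chaetocin libraries, against 6 over the TGF-β libraries (log2 fold change 4.65 ± 0.37 SE; edgeR adjusted p = 6.8e-12). For Cxcl12, the scavenging receptor Ackr3 rose by 0.89 ± 0.27 on the log2 scale (SE; edgeR adjusted p = 0.00387). Cxcr4, its signalling receptor, had a log2 fold change of -0.64 ± 0.23 (SE; edgeR adjusted p = 0.0124), a call that was lost without chaetocin replicate 3 (-0.46, adjusted p = 0.0615). The Cxcr4 call was also lost with limma on the FPKM scale (adjusted p 0.137 to 0.178) and with glmTreat against a fold of 1.5 (adjusted p = 0.463). Cxcr6, which binds Cxcl16, was not called, with 25 counts with chaetocin and 49 with TGF-β alone (edgeR adjusted p = 0.0961, or 0.0489 without TGF-β replicate 2). Gpr35, proposed as a receptor of Cxcl17, was called higher by a narrow margin (log2 fold change 0.45, edgeR adjusted p = 0.0481). Most alternatives did not keep that call. Among them were DESeq2 (adjusted p = 0.132), the replicate block (edgeR adjusted p = 0.093) and most fits with a single library left out. Cxcr1 had 6 counts with chaetocin and 0 with TGF-β alone, and the decoy receptor Ackr1 had 0 and 2 in that order.

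**Figure D3:**
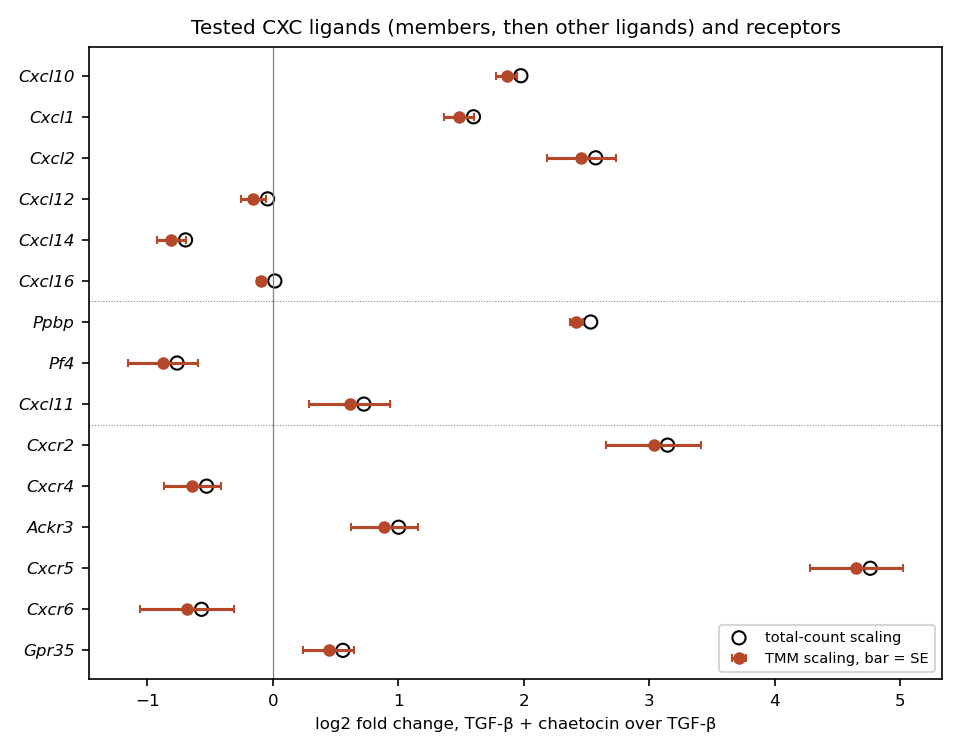
Log2 fold change of TGF-β + chaetocin over TGF-β alone (horizontal axis) for each tested ligand and receptor, as filled points with SE under TMM scaling and open circles under total-count scaling. Cxcl10, Cxcl1, Cxcl2 and Ppbp lie right of 1 under both scalings, while Cxcl16 lies at -0.10 and 0.02.

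The signalling genes that lead to Cxcl9 and Cxcl10 went both ways. Of 20 interferon signalling genes 19 were tested, 11 were called higher, 7 lower and 1 not at all, beside 42.0% higher and 38.8% lower among all tested genes. The median log2 fold change was 0.27, against 0.02 for all tested genes. Irf7, which amplifies type I interferon induction, reached 92.1 ± 5.02 CPM with chaetocin and 4.06 ± 1.12 CPM with TGF-β alone (SD, n = 4 each; log2 fold change 4.52, edgeR adjusted p = 2.5e-26). Stat2, a transcription factor of the type I interferon pathway, stood at 122.3 ± 2.31 CPM with chaetocin and 20.5 ± 3.56 CPM with TGF-β alone (log2 fold change 2.59; edgeR adjusted p = 5.2e-24). Among the genes that fell, Ifngr2 and Ifngr1, the chains of the interferon gamma receptor, had log2 fold changes of -0.71 and -0.51, and the kinase Jak1 had -0.49. Ifnb1, the interferon beta gene, was not tested, with 7 counts over the chaetocin libraries and 0 over the TGF-β libraries.

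Genes of the NF-κB and interleukin receptor arm, which feeds Cxcl1 and Cxcl2, went both ways. All 25 were tested, with 11 called higher and 10 lower, near the shares of all tested genes, and a median log2 fold change of 0.05, and total-count scaling gave 14 higher and 10 lower. The double-stranded RNA sensor Tlr3, the adaptor Myd88 and the kinase regulator Ikbkg rose by 1.68, 1.88 and 1.09 on the log2 scale. Tnfaip3, the A20 inhibitor of the pathway, the subunit gene Nfkb1 and the ubiquitin ligase Traf6 had log2 fold changes of -1.05, -0.61 and -0.57. Rela, the main transactivating subunit, chosen after its values were seen, stood at 121 ± 3.93 CPM with chaetocin and 116.1 ± 2.48 CPM with TGF-β alone and was not called (edgeR adjusted p = 0.0721).

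Neutrophil chemokine transcripts are short-lived because AU-rich elements in the 3′ UTR recruit decay factors. The ATTTA pentamer of these elements occurred 7 times in the 595 bases of the Cxcl1 3′ UTR, 11 times in the 1497 bases of Cxcl2, 5 times in the 648 bases of Cxcl3 and 3 times in the 999 bases of Cxcl10. It did not occur in the 3′ UTR of Cxcl14. In Ppbp, which rose, it occurred once in 659 bases (1.517 per kilobase), and in Pf4, which fell, once in 126 bases (7.937 per kilobase). Whether the pentamer goes with the direction of change was not tested. Per kilobase Cxcl1 held 11.8, a density reached by 0.735% of 21642 genes, against 3.003 for Cxcl10 and a median of 1.147 over all genes. Of 8 factors that stabilise or degrade such transcripts, 3 were called higher, 3 lower and 2 not at all, beside 80.7% called in either direction among all tested genes, with a median log2 fold change of 0.01. Zfp36, or tristetraprolin, a decay factor for AU-rich messages, rose to 113.6 ± 8.63 CPM with chaetocin, against 19.5 ± 0.746 CPM with TGF-β alone (SD, n = 4 each; log2 fold change 2.55, edgeR adjusted p = 2.0e-25). Its relatives Zfp36l1 and Zfp36l2 had log2 fold changes of -0.62 and -0.23, and the endonuclease Zc3h12a, or regnase, one of -0.48. The stabilising protein gene Elavl1, for HuR, rose by 0.19 and Hnrnpd, for AUF1, which binds the same elements, by 0.74. Under total-count scaling 5 of the 8 were called higher and 3 lower.

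Of 12 tested proteases that cut or release CXC ligands, 8 were called lower, 3 higher and 1 not at all, beside 38.8% lower and 42.0% higher among all tested genes. Their median log2 fold change was -0.71, against 0.02 for all tested genes. The gelatinase Mmp9 stood at 30.1 ± 2.83 CPM with chaetocin and 278.8 ± 22.3 CPM with TGF-β alone (SD, n = 4 each), and Mmp2, which inactivates Cxcl12, at 27.0 ± 4.62 and 156.4 ± 6.07 CPM in the same order. The membrane-bound protease Mmp14 had a log2 fold change of -1.82. Adam10, the sheddase of Cxcl16 and chosen after its values were seen, stood at 128.5 ± 4.06 CPM with chaetocin and 228.1 ± 6.63 CPM with TGF-β alone (log2 fold change -0.83; edgeR adjusted p = 5.7e-20). Dpp4, which trims Cxcl10 and Cxcl12 at the amino end, rose by 1.61 ± 0.29 on the log2 scale (SE; edgeR adjusted p = 1.3e-05), to 1.46 ± 0.343 CPM. Fap, a related peptidase, and Mmp12, the macrophage elastase, rose by 0.93 and 0.17. The Mmp12 call was lost without chaetocin replicate 3 or 4 or TGF-β replicate 1 or 2 (edgeR adjusted p 0.0668 to 0.159), with DESeq2 (adjusted p = 0.174), with limma-voom (0.0514) and with glmTreat (1.0). The Fap call was lost with limma on log2(FPKM + 1) without a filter (adjusted p = 0.0648) and with glmTreat (0.127).

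**Figure D4:**
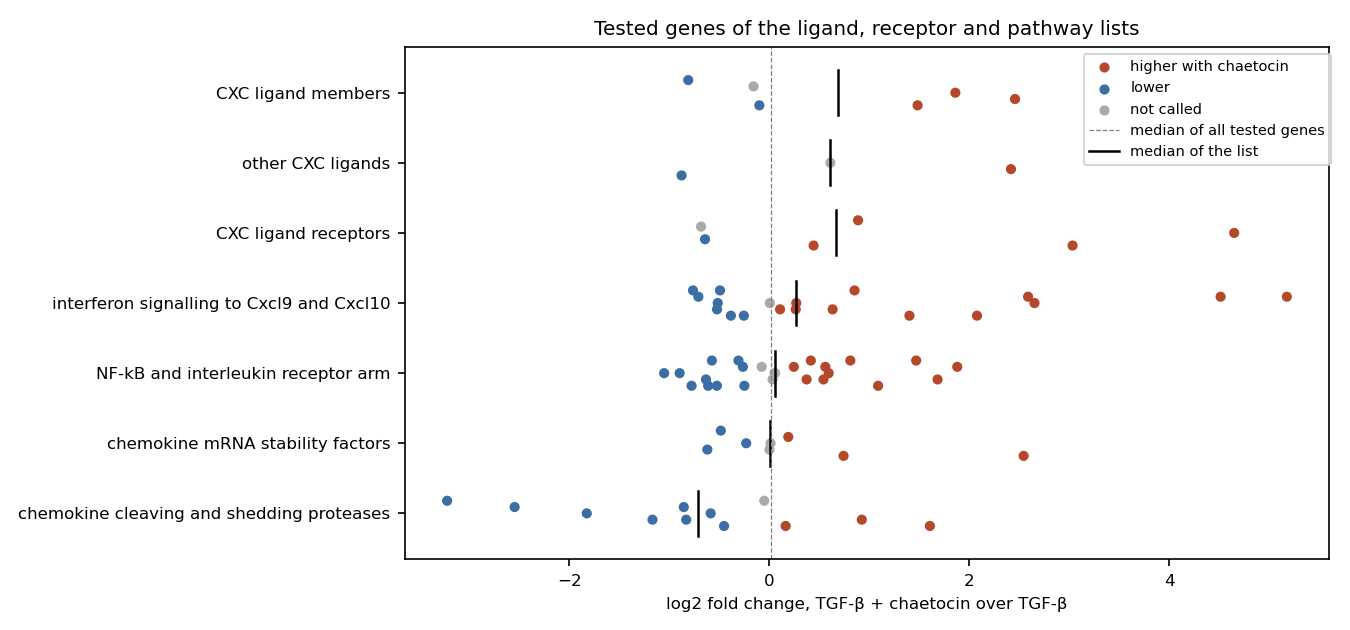
Each point is a tested gene placed by its log2 fold change, TGF-β + chaetocin over TGF-β alone (horizontal axis), in rows for the ligands, receptors and pathway lists, coloured by call, with a bar at the median of each list and a dashed line at the median of all tested genes, 0.02. The protease row lies mostly left of the line, with a median of -0.71, while the NF-κB and stability rows centre near it.

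Cell types other than fibroblasts could contribute ligands, so their markers were summed. Macrophage and leukocyte markers summed to 157.1 to 191.3 FPKM with chaetocin and 265.2 to 293.7 FPKM with TGF-β alone, with 9 of 13 called lower and 4 higher, beside 38.8% lower and 42.0% higher among all tested genes. Lyz2, the most abundant, stood at 45.9 ± 3.17 CPM with chaetocin and 75.9 ± 2.66 CPM with TGF-β alone. T and natural killer cell markers summed to 2.06 to 2.72 FPKM with chaetocin and 0.77 to 1.60 with TGF-β alone. Of 10 such markers 2 were tested, 1 being called higher and 1 not called. The latter, Cd4, had 72 counts with chaetocin and 126 with TGF-β alone. The defining markers Cd3g and Cd8a were at 0 in all libraries, and the others were not. Tubule epithelium markers summed to 3792 to 3968 FPKM with chaetocin and 1789 to 1876 with TGF-β alone, 5 of 11 tested being higher and 5 lower. Krt8 alone had a mean of 1919 FPKM with chaetocin and 776 FPKM with TGF-β alone. The median log2 fold change of the 11 was -0.07, so the larger sum does not mean that these markers rose as a set. Endothelial markers summed to 33.0 to 38.3 FPKM with chaetocin and 20.4 to 24.3 with TGF-β alone, 5 of 8 being higher and 2 lower, with Cdh5 the most abundant. Fibroblast markers summed to 1134 to 1272 FPKM with chaetocin and 1169 to 1210 with TGF-β alone, 3 of 11 being higher and 5 lower. Acta2, the largest part of that sum, had a mean of 945 FPKM with chaetocin and 621 FPKM with TGF-β alone. Vim, the next largest, went the other way, at 211 and 511 FPKM in the same order. The similar sums therefore do not mean that the single fibroblast markers were unchanged. The part of these differences in the ligand values was not tested.

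On the chromosome, the genes next to Cxcl10 did not move with it as a block. Within 250 kb of Cxcl10, 7 of the 10 other genes were tested, 1 was called higher, 5 lower and 1 not at all, beside 42.0% higher and 38.8% lower among all tested genes. Art3, of the ADP-ribosyltransferase family, whose exons overlap Cxcl10, rose to 80 counts over the chaetocin libraries, against 4 over the TGF-β libraries (log2 fold change 4.42 ± 0.48 SE). Strand is not known here, so reads of the 133 shared bases cannot be assigned to 1 of the genes. Uso1, a vesicle tethering gene, and Scarb2, a lysosomal membrane protein gene, had log2 fold changes of -0.52 and -0.62. The ribosome biogenesis gene Sdad1, the nuclear pore gene Nup54 and Naaa, for a lysosomal amidase, had values of -0.21, -0.18 and -0.18 on the same scale. These 3 calls were lost under total-count scaling (edgeR adjusted p = 0.0562 for Sdad1, 0.22 for Nup54 and 0.445 for Naaa), and Sdad1 turned to 0.13 on the FPKM scale.

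Around Cxcl1, 4 of 6 tested genes were called higher, 1 lower and 1 not at all, beside 42.0% higher and 38.8% lower among all tested genes. Besides Ppbp and Cxcl2, the higher ones were the epidermal growth factor receptor ligands Areg and Ereg, at 7.48 ± 0.438 and 6.58 ± 0.712 CPM with chaetocin, against 1.11 ± 0.491 and 2.17 ± 0.142 CPM with TGF-β alone (SD, n = 4 each). Their log2 fold changes were 2.75 and 1.61. Pf4 was the one that fell, and Mthfd2l, a mitochondrial folate enzyme gene, was not called (log2 fold change -0.04, edgeR adjusted p = 0.646). Rassf6, within 250 kb of Cxcl5, rose by 1.07. The adjacent genes Ppbp and Pf4 were called in opposite directions, with the limits on Pf4 given above. Around Cxcl14, 1 of 4 tested genes was higher and 2 were lower, and around Cxcl16, 15 of 23 were higher and 4 lower. Near Cxcl17 the counts were 4 higher and 8 lower of 14, and none of these neighbourhood counts was tested against the shares of all genes.

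**Figure D5:**
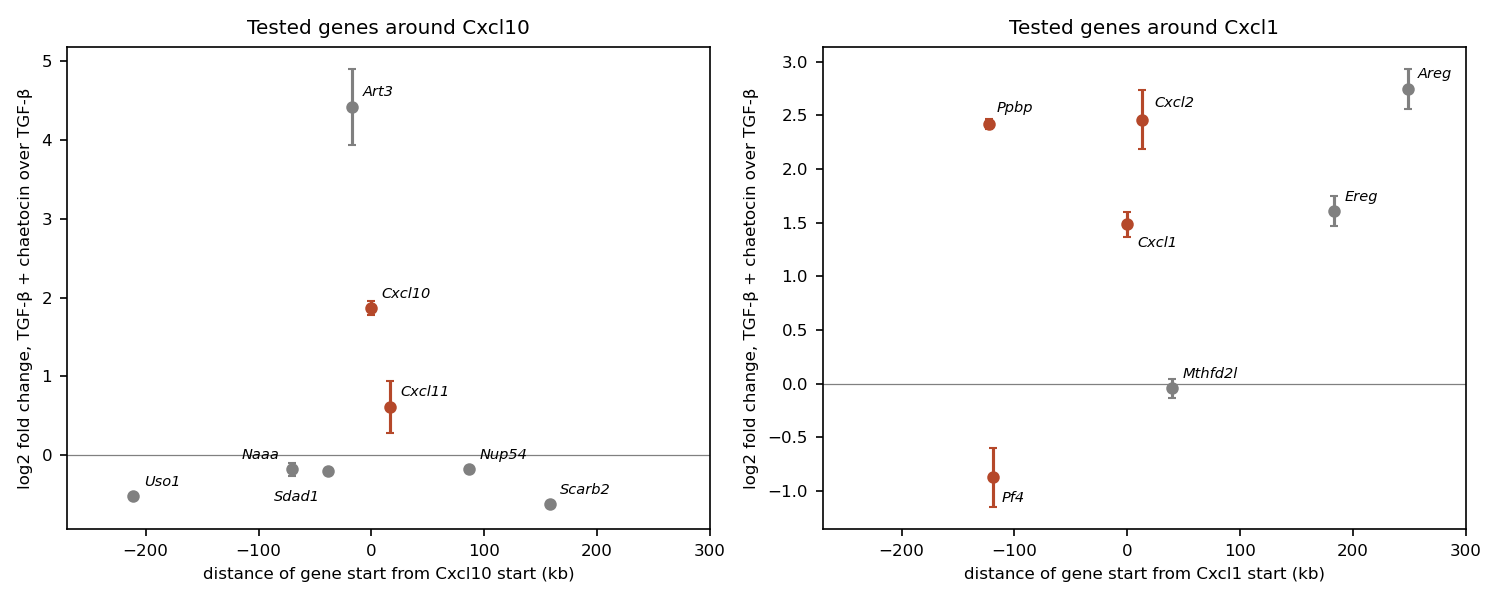
Log2 fold change with SE (vertical axis, TGF-β + chaetocin over TGF-β alone) of each tested gene against the distance of its start from the start of Cxcl10 (left) or Cxcl1 (right) in kilobases, with CXC ligands in red. Around Cxcl10 only Art3 and Cxcl11 lie above 0 beside it, and around Cxcl1 the values run from -0.88 for Pf4 to 2.75 for Areg.

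The genes whose profile over the 8 libraries was most like each ligand were taken by the root mean square difference of centred log2 CPM among 9929 genes. The difference between the groups is part of this measure. Log2 fold changes near that of the ligand therefore follow from the choice and are not a result. The share of interferon-induced genes among the genes compared was not counted. For Cxcl10 they included Lrrc56 (0.10), Ifi35 (0.109), Mitd1 (0.116) and Samd9l (0.127), an interferon-inducible growth suppressor, and the log2 fold changes of these 4 lay between 1.75 and 1.89. Ifi35 is an interferon-induced protein gene. For Cxcl1 the nearest were Nmi, an interferon-induced gene (0.138), the myosin gene Myo19 (0.141) and the glutathione transferase Gsta4 (0.164). For Cxcl12 they were Zfp87 (0.0656), Itpk1 (0.0743) and Angpt2 (0.0820), and for Cxcl16 Eif2b1 (0.0241), Rpf1 (0.0244) and Tubb6 (0.0252), all genes of small change.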

How the data were processed

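RNA of 8 RFB samples was extracted with an RNeasy kit and made into libraries with a SMARTER mRNA kit, per the labels' protocols. The build was GRCm38 (mm10), per the submitters' processing notes. The sources used here do not give the aligner, counter, strand setting or annotation. FPKM values, as deposited by the authors, divide by depth and by a gene length, which differed between libraries for some genes. The authors deposited, per the file headers, a table of these and of whole-number read counts, not normalized, for 22274 genes. Its columns of the authors' own log2 ratio and FDR p-value, also deposited by the authors, were not used for any result printed. It held 0 columns of other samples, and 12 rows had no symbol. Groups come from the treatment labels.

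Counts were tested with edgeR 4.0.16 in R 4.3.3 (filterByExpr, TMM, quasi-likelihood F test, no block), with Benjamini-Hochberg adjustment over 14608 genes and a call at adjusted p under 0.05. All adjusted p-values are from edgeR unless another tool is named. The SE is the log2 fold change divided by the root of F. Levels are TMM-scaled CPM. Exact permutation tests used log2 CPM with a prior count of 2 over 70 splits. Counting intervals are exact at 95% and cover counting error only. The procedure was run on simulated counts in which few genes changed, as many up as down. That run cannot speak to scaling or error rates in these data, where 80.7% of tested genes were called. The 19 alternatives covered scaling, filters, DESeq2 1.42.0, limma 3.58.1 (voom, and log2(FPKM + 1) or + 0.1), glmTreat against a fold of 1.5, the replicate block and each library left out. Positions come from GENCODE M21, which matched 22219 gene IDs.

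The ligands and lists were chosen with earlier results of these data known. Named genes are all 10 ligands, every called gene of lists with at most 10 tested genes, otherwise the 3 of smallest p in each direction, the most abundant marker and markers at 0 of each cell type, tested neighbours within 250 kb of the Cxcl10 and Cxcl1 clusters, and the 3 or 5 genes most alike in profile. A few of these genes are not reported here by name.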

Additional observations from a re-analysis of the deposited data

Results flagged for a closer look

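A library was taken to stand apart from its group of 4 when its gap to the nearest other library exceeded 0.829 of the group's range (Dixon's 95% value). Of 135 groups of named genes tested, 9 met this, and chance alone gives about 1 in 20. Among the ligands it was met by Cxcl1, with 4.87 CPM in TGF-β replicate 1 against 7.11 to 7.36 CPM in the other 3. In chaetocin replicate 3, Mmp2 had 33.9 CPM (24.1 to 25.4 in the rest), Zfp36l2 43.3 CPM (48.1 to 48.9) and Areg 8.14 CPM (7.21 to 7.31). In chaetocin replicate 4, Nup54 had 33.8 CPM (30.7 to 30.9) and Myo19 65.3 CPM (58.6 to 59.6). In chaetocin replicate 1, Samd9l had 318.0 CPM (350.0 to 354.0). In the TGF-β group, Ifngr1 had 129.0 CPM in replicate 4 (118.0 to 119.0), and Naaa had 11.8 CPM in replicate 1 (13.0 to 13.3).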

How the results depend on the processing

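Cxcl10, Cxcl1, Cxcl2 and Cxcl14 kept their direction and their call under all 19 alternatives. The number of ligands called higher was 5 in place of 3 with no filter on low counts, with DESeq2 and with limma on log2(FPKM + 1) without a filter, as Cxcl3 and Cxcl5 were then tested. The number called lower was 1 in place of 2 under total-count scaling, in the 3 FPKM fits and with glmTreat, which lost Cxcl16. Tested against a fold of 1.5 with glmTreat, 26 genes followed here lost their call. Leaving out single libraries gave 3 to 4 ligands higher (Cxcl3 added) and 2 to 3 lower (Cxcl12 added), and over all genes 6030 to 6276 higher and 5538 to 5677 lower. Over all genes, glmTreat called 3357 higher and 1492 lower in place of 6129 and 5662, and total-count scaling 7180 and 4514. Replicate numbers did not pair the libraries (correlations of deviations -0.0134 to 0.0318 between equal numbers). The replicate block gave 3 ligands higher and 2 lower and 6105 and 5643 genes, and the call lost among named genes was Gpr35.

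Values that changed sign were all small, and the cause was not tested. With total-count scaling the log2 fold changes were 0.017 for Cxcl16, 0.070 for Mthfd2l, 0.022 for Eif2b1, 0.00040 for Rpf1 and 0.018 for Tubb6. In the FPKM fits (log2(FPKM + 1), + 0.1 and + 1 without a filter) they were 0.086, 0.11 and 0.086 for Cxcl12, 0.010 in each for Cxcl16, 0.13 in each for Sdad1, 0.080, 0.090 and 0.080 for Mthfd2l, and 0.13, 0.15 and 0.13 for Zfp87. In the same fits they were 0.017, 0.018 and 0.017 for Eif2b1, 0.0057, 0.0059 and 0.0057 for Rpf1, and 0.019, 0.020 and 0.019 for Tubb6. Leaving out single libraries gave -0.12 to 0.0056 for Mthfd2l, the positive value without TGF-β replicate 1. Depth limits Cxcl3, Cxcl5, Cxcl9 and Cxcl17, whose levels stood near or below 3 counts per library in at least 1 group.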
